A study of Mus musculus with 12 samples.

Results

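The genes described here encode 8 neuropeptides known from the lateral and dorsomedial hypothalamus: neurotensin (Nts), galanin (Gal), prolactin-releasing peptide (Prlh), the tachykinin precursor of substance P (Tac1), orexin or hypocretin (Hcrt), melanin-concentrating hormone (Pmch), proenkephalin (Penk) and cholecystokinin (Cck). They were chosen by name, with earlier results of these data known, and all 8 were found among the 52638 entries of the gene table. Their counts are set beside the share of all genes as a description, not as a test. RNA was taken from the hypothalamus of adult mice. All animals had the genotype LepRb-Cre/Cre with R26-GFP:L10a/GFP:L10a, so that cells with the long leptin receptor (LepRb) make a ribosomal protein L10a fused to green fluorescent protein. The Ctrl animals carried nothing further, and the Stat3KO animals were in addition Stat3-flox/flox. Tagged ribosomes were captured on beads, and this bead-bound fraction is enriched for LepRb cells; what stays in solution forms the supernatant fraction. Each of the 6 pools held hypothalami of 5 to 8 mice and was divided into both fractions, which gave 3 libraries in each of 4 groups.

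The Cre line limits this model in a known way: recombination follows the LepRb promoter wherever it has been active, so the bead-bound RNA mixes LepRb cells of many nuclei, and no library holds the lateral or dorsomedial region alone. Where the text gives CPM, the usual scaling of each count by its library's total was used, with totals adjusted by TMM factors, and values are listed for pools 1, 2 and 3 in that order. Total counts per library ran from 20743217 to 41829907. Stat3 was counted in all 12 libraries and its bead-bound level did not differ between genotypes by the test (log2 fold change -0.24, SE 0.160, edgeR adjusted p = 0.999). The table counts the whole gene, so this value does not test whether the floxed part was removed. The tag itself checks the capture: Gfp_L10a was 11.3-fold higher on beads than in supernatant over both genotypes (log2 3.50, SE 0.214, edgeR adjusted p = 4.53e-08) and Lepr was 5.06-fold higher (log2 2.34, SE 0.189, edgeR adjusted p = 4.68e-07). Replicate 1 stood apart in every group. The chi-square statistic per gene between libraries of a group was 23.92 to 71.64 for pairs with replicate 1 and 5.734 to 15.24 between replicates 2 and 3, and Gfp_L10a was lowest on beads in replicate 1 of both genotypes, at 97.5 CPM in Ctrl and 82.35 CPM in Stat3KO against 131 to 164.5 CPM in the other bead libraries. Several results are therefore given with and without it, or with their range over alternatives.

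Neuropeptides are cut from larger precursor proteins, stored in dense-core vesicles and released to act on G protein-coupled receptors. Leptin acts on LepRb cells partly through the transcription factor STAT3. In the lateral hypothalamic area, LepRb neurons are known to make neurotensin, and many of them galanin as well, whereas the orexin and melanin-concentrating hormone neurons of the same area are separate cells that largely lack LepRb. Prolactin-releasing peptide is made by LepRb neurons of the dorsomedial nucleus. Tac1, Penk and Cck are used by many brain cell types: enkephalin and substance P mark different neurons of the striatum, and cholecystokinin is widespread in cortex, thalamus and midbrain.

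The sequences below are the RefSeq promoter windows (GRCm38.p6, 250 bases before to 50 after the annotated start of transcription, gene strand, 5′ to 3′). They are shown for the 4 peptide genes that were higher on beads in both genotypes and for Pmch, which was lower. Capitals mark every match to the 3 motifs searched on both strands, none of which overlap in these windows: the STAT letters TTCNNNGAA, the half-site TGACG of the cyclic AMP response element, which reads CGTCA when it lies on the opposite strand, and the TATA box letters TATAAA.
Nts, chr10:102490369-102490668, minus strand: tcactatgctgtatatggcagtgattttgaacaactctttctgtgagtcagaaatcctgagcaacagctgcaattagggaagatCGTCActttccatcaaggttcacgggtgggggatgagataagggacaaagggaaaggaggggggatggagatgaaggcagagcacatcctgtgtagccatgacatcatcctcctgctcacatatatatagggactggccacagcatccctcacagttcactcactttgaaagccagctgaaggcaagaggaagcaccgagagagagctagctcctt
Gal, chr19:3414495-3414794, minus strand: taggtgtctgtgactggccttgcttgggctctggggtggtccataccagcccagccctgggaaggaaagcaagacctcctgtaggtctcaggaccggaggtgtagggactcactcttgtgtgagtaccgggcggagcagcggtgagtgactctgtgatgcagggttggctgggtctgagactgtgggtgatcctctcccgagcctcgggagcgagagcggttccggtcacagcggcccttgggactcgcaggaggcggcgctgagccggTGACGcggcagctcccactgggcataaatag
Prlh, chr1:90952858-90953157, plus strand: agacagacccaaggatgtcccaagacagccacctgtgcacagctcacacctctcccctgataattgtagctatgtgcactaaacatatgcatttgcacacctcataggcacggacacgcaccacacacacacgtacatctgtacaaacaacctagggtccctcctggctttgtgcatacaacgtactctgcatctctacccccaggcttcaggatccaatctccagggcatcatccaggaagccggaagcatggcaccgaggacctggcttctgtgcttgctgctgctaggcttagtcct
Tac1, chr6:7554811-7555110, plus strand: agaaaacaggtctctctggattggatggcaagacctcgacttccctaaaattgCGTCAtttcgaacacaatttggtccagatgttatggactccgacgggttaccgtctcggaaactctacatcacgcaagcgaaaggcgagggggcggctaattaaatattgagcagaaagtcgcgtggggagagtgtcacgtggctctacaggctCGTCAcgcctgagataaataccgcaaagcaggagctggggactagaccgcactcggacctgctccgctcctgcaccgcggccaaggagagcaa
Pmch, chr10:88090822-88091121, plus strand: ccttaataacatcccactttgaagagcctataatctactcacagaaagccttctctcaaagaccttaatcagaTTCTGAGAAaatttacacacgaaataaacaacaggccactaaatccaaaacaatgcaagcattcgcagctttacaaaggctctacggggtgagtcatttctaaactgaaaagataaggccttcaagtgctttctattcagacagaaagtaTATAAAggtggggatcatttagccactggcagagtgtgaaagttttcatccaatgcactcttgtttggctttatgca
Positions are counted from the start site. Nts had 1 half-site at -166, Gal had 1 at +20 and Tac1 had 2, at -197 and -43. Prlh had no match to any of the 3 motifs. Its annotated start is the start codon, since its model holds only coding sequence, so this window may not cover its promoter. Pmch held the STAT letters at -177 and TATAAA at -27, and was the only one with the STAT letters among the 7 genes found in the promoter table. The other members found there were Hcrt, with TATAAA at -33, and Cck, with a half-site at -47. Penk was not matched. Of 32851 windows of the same length, 8.3% held the STAT letters, 20.8% the half-site and 13.6% TATAAA, so these matches describe the windows and show no binding.

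**Figure D1:**
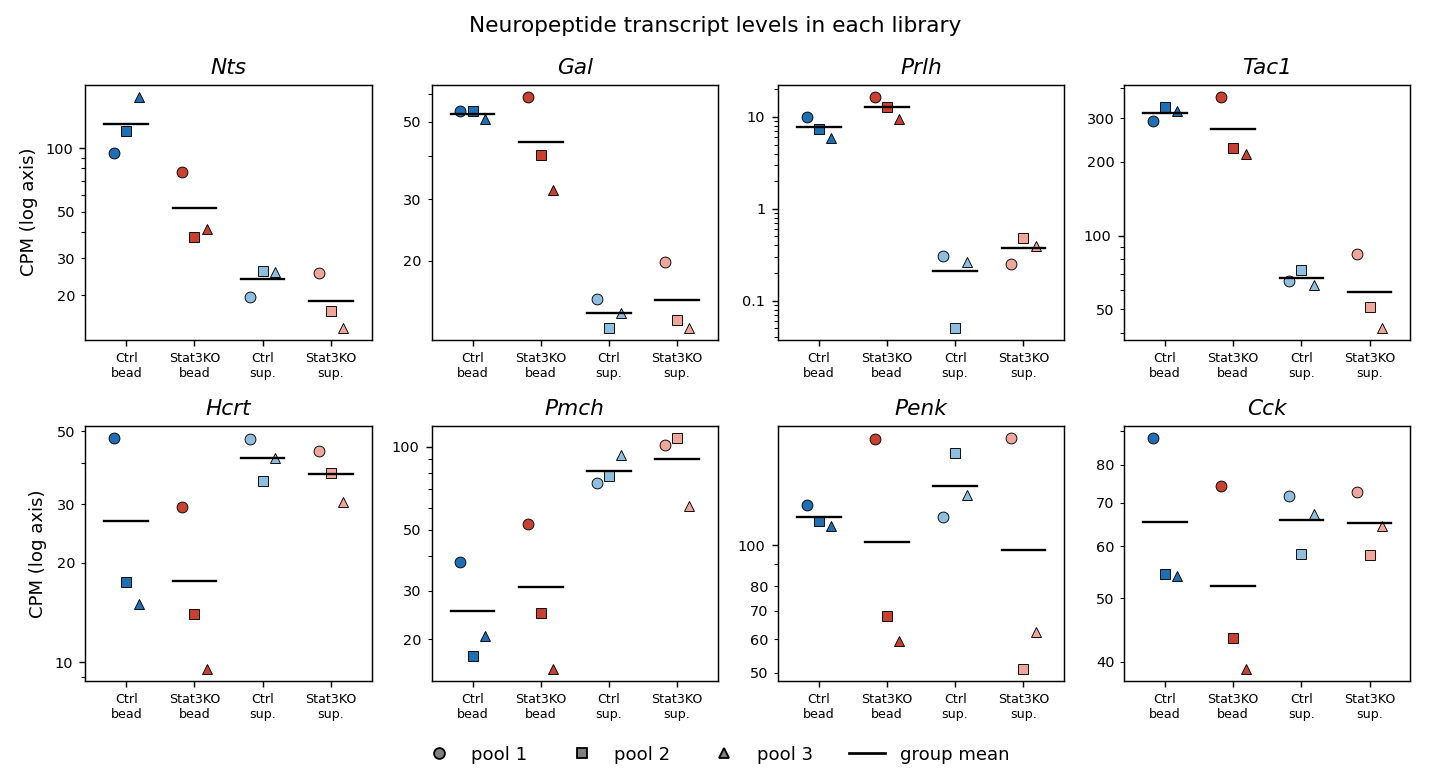
Level of each of the 8 peptide transcripts in all 12 libraries, in CPM on a log axis, by genotype and fraction (sup., supernatant); symbols are pools and bars are means of 3 libraries. The top row holds the 4 genes whose bead libraries all lie above all supernatant libraries, and Pmch in the bottom row shows the opposite order.

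Levels between genes were compared as CPM per kilobase of annotated exon. The exon lengths run from 276 bases for Prlh, whose model holds only coding sequence, to 3399 bases for Tac1. Each length joins the exons of all annotated transcripts, 5 for Tac1 and 1 for Nts, so the order between genes depends on these models. In CPM without this divisor, Tac1 (315.9) stood above Nts (130.5) on Ctrl beads. In Ctrl bead-bound RNA the order was Nts (104.5 ± 32.95, SD, n = 3), Tac1 (92.95 ± 6.31), Penk (71.2 ± 4.21), Gal (66.85 ± 2.11), Cck (50.1 ± 14.9), Hcrt (35.7 ± 24.3), Pmch (33.8 ± 14.9) and Prlh (27.9 ± 7.58 CPM per kilobase). The libraries of neighbours in this order overlapped, except that Tac1 lay above Penk. In Ctrl supernatant Pmch led with 109.1 ± 13.3 CPM per kilobase, followed by Penk, Hcrt and Cck at 84.2 ± 15.2, 55.2 ± 8.01 and 50.45 ± 5.15. Tac1, Nts and Gal stood close together at 19.7 ± 1.5, 19.1 ± 2.84 and 18.03 ± 1.73, and Prlh was last at 0.7525 ± 0.501 CPM per kilobase. There the gaps between Penk and Hcrt, between Cck and Tac1 and between Gal and Prlh were wider than the libraries' spread, while other neighbours overlapped. In Stat3KO bead-bound RNA all neighbours overlapped, with Tac1 first at 79.6 ± 25.01, Nts at 41.8 ± 17.4 and Hcrt last at 23.6 ± 14.0 CPM per kilobase. In Stat3KO supernatant the order ran from Pmch at 120.1 ± 33.75 to Prlh at 1.37 ± 0.425 CPM per kilobase.

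The first question was which of these transcripts are enriched on the tagged ribosomes. In Ctrl mice Nts, Gal, Prlh and Tac1 were higher on beads and Pmch was lower, which is 4 and 1 of 8 members, against 20.7% of all genes tested called higher and 21.2% called lower by edgeR (adjusted p under 0.05). In Stat3KO mice the same 4 genes were higher and Hcrt and Pmch were lower, against 14.7% and 17.3% of all genes. Libraries of the 2 fractions did not overlap for 5 members in Ctrl and 6 in Stat3KO, against 54.2% and 48.9% of all genes. In bulk RNA, more cells of a type and more RNA per cell cannot be told apart.

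Prlh, the peptide of dorsomedial LepRb neurons (ENSMUSG00000090550; GRCm38 chr1:90953108-90954027, plus strand), had the steepest enrichment of the 8. Its bead-bound levels were 9.97, 7.31 and 5.84 CPM in Ctrl and 16.7, 12.7 and 9.498 CPM in Stat3KO. In supernatant it was near the limit of detection, with 7, 2 and 11 counts in Ctrl and 10, 21 and 10 counts in Stat3KO. All bead libraries lay far above all supernatant libraries. The fold was 38.9 in Ctrl (log2 5.28, SE 0.455, edgeR adjusted p = 0.000182), rank 3 of the 18036 genes tested, and 33.7 in Stat3KO (log2 5.08, SE 0.317, edgeR adjusted p = 2.42e-05). Counting error is wide here: in Ctrl pool 2 the ratio of 145.1 rests on 2 supernatant counts and has a 95% exact Poisson interval, taken from those counts alone, of 40.17 to 1198. In the other 5 pools the ratio was 22.2 to 66.2.

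Tac1 (ENSMUSG00000061762; chr6:7554879-7565834, plus strand) was the most abundant member in CPM on beads; in supernatant Penk and Pmch had higher group means in both genotypes. It stood at 292, 333.5 and 322.3 CPM on Ctrl beads and 65.3, 72.7 and 62.9 CPM in Ctrl supernatant. The Stat3KO beads held 368.5, 227.6 and 215.6 CPM and the supernatant 83.8, 51.1 and 42.02 CPM. The Stat3KO pools differed more than the Ctrl pools, with pool 1 highest in both fractions, while the ratio of bead to supernatant was 4.396 to 5.13 in all 6 pools. The fold was 4.73 in Ctrl (log2 2.24, SE 0.105, edgeR adjusted p = 1.79e-05) and 4.55 in Stat3KO (log2 2.19, SE 0.285, edgeR adjusted p = 0.000912).

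Gal (ENSMUSG00000024907; chr19:3409915-3414544, minus strand) was on Ctrl beads at 53.6, 53.7 and 50.8 CPM and in Ctrl supernatant at 15.6, 12.9 and 14.2 CPM. On Stat3KO beads it was at 59.0, 40.1 and 31.9 CPM, and in the supernatant at 19.9, 13.5 and 12.85 CPM. The 3 Ctrl bead libraries were nearly equal, while the Stat3KO bead libraries spread on both sides of them. The bead to supernatant fold was 3.73 in Ctrl (log2 1.90, SE 0.111, edgeR adjusted p = 4.53e-05) and 2.81 in Stat3KO (log2 1.49, SE 0.246, edgeR adjusted p = 0.00268).

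Nts (ENSMUSG00000019890; chr10:102481756-102490486, minus strand) was on Ctrl beads at 94.9, 121 and 175.5 CPM and in Ctrl supernatant at 19.75, 26.0 and 25.7 CPM. On Stat3KO beads the levels were 77.1, 38.0 and 41.4 CPM, and in Stat3KO supernatant 25.5, 16.9 and 14.0 CPM. Every bead library was above every supernatant library. The fold was 5.46 in Ctrl (log2 2.45, SE 0.220, edgeR adjusted p = 0.000215) and 2.74 in Stat3KO (log2 1.45, SE 0.298, edgeR adjusted p = 0.00676).

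Of the peptides of the 2 classical lateral hypothalamic cell types that largely lack LepRb, Pmch was lower on beads in both genotypes, and Hcrt passed in Stat3KO but not in Ctrl. Pmch (ENSMUSG00000035383; chr10:88091072-88092375, plus strand) was on beads at 38.1, 17.35 and 20.5 CPM in Ctrl and 52.5, 24.9 and 15.6 CPM in Stat3KO. In supernatant it was at 74.0, 78.2 and 93.0 CPM in Ctrl and 101.1, 107.7 and 61.0 CPM in Stat3KO, and within each genotype no bead library reached the lowest supernatant library. It was 3.22-fold lower on beads in Ctrl (log2 -1.69, SE 0.280, edgeR adjusted p = 0.00248) and 2.93-fold lower in Stat3KO (log2 -1.55, SE 0.391, edgeR adjusted p = 0.0157). The Stat3KO call was lost without bead-bound replicate 2 (log2 -1.41, adjusted p = 0.0515) or supernatant replicate 2 (log2 -1.40, adjusted p = 0.059). With each Stat3KO library left out in turn, the log2 value ran from -2.155 to -1.22 (edgeR adjusted p = 3.52e-05 to 0.059). Pmch overlaps in part with Parpbp, a gene on the opposite strand, and the reads carry no strand, but Parpbp had group means of only 0.676 to 0.949 CPM.

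Hcrt (ENSMUSG00000045471; chr11:100761069-100762931, minus strand) lies 122167 bp from Stat3 on the same chromosome, so that the floxed Stat3 allele and this gene are close neighbours. It was on beads at 47.7, 17.5 and 14.99 CPM in Ctrl and 29.5, 14.0 and 9.53 CPM in Stat3KO, and in supernatant at 47.2, 35.2 and 41.5 CPM in Ctrl and 43.5, 37.3 and 30.5 CPM in Stat3KO. Pool 1 was highest on beads in both genotypes, and in Ctrl its bead library overlapped the supernatant. Hcrt was 2.12-fold lower on beads in Stat3KO (log2 -1.08, SE 0.347, edgeR adjusted p = 0.0392). That call was lost without any 1 of supernatant replicates 1, 2 and 3 or bead-bound replicates 2 and 3 (adjusted p = 0.0652 to 0.112). It was also lost in the fit of all 12 libraries (adjusted p = 0.0551). With each Stat3KO library left out in turn, Hcrt had log2 values of -1.66 to -0.775 (edgeR adjusted p = 4.47e-05 to 0.112). In Ctrl it did not pass (log2 -0.62, SE 0.401, edgeR adjusted p = 0.241), but it passed with the pool as a block (log2 -0.81, edgeR adjusted p = 0.0114; 29% of all genes lower) and without Ctrl bead-bound replicate 1 (log2 -1.35, edgeR adjusted p = 7.87e-05; 24.4%); over its alternatives the adjusted p ran from 2.87e-05 to 0.527.

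Pool 1 set the spread of both genes. In pool 1 the bead to supernatant ratio of Pmch was 0.515 in Ctrl and 0.519 in Stat3KO, and in pools 2 and 3 it was 0.221 to 0.255. For Hcrt the ratio was 1.01 and 0.678 in pool 1 and 0.312 to 0.497 in the others. The marker sums of astrocytes, oligodendrocytes and microglia were also highest on beads in pool 1 of both genotypes. The 7 astrocyte markers summed to 1299 CPM on Ctrl beads of pool 1 against 852.7 and 843.1 CPM in pools 2 and 3, and to 1021 against 932.6 and 797.9 CPM in Stat3KO. The 7 oligodendrocyte markers summed to 2428 against 1390 and 1809 CPM in Ctrl and 1938 against 1651 and 1330 CPM in Stat3KO, and the 6 microglial markers to 35.25 against 19.3 and 20.35 CPM in Ctrl and 24.5 against 20.6 and 13.5 CPM in Stat3KO. None of the markers of these 3 lists was at 0 in any library, and their supernatant sums were 1448 to 1682, 3684 to 5999 and 47 to 77.7 CPM. Their part in the levels of Pmch and Hcrt was not tested. The 7 endothelial markers went the other way. On Ctrl beads they summed to 68.45 CPM in pool 1 against 88.63 and 161.6 CPM, and on Stat3KO beads to 27.05 against 164.7 and 119.4 CPM.

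**Figure D2:**
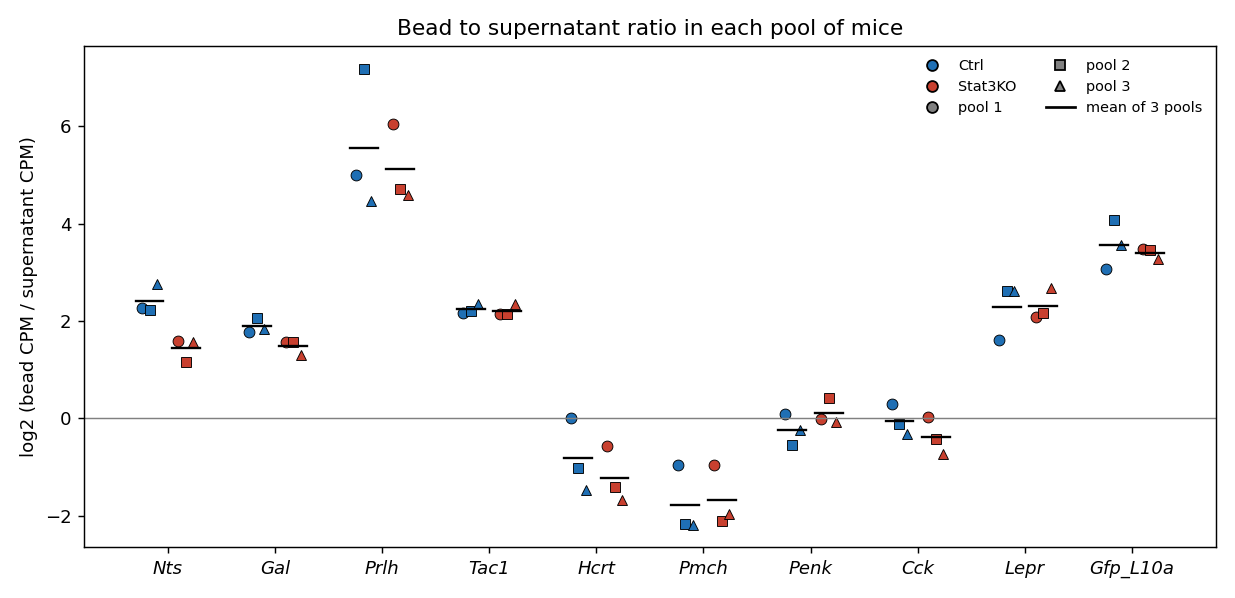
Bead to supernatant ratio of each peptide transcript, of Lepr and of the tag Gfp_L10a in each of 6 pools, as log2 of the ratio of CPM values (vertical axis); 0 means equal levels and bars are means of 3 pools. Tac1 lies between 2.14 and 2.36 in all pools, and Nts at 2.22 to 2.77 in Ctrl and 1.16 to 1.59 in Stat3KO. Pool 1 (circles) is highest for Hcrt and Pmch in both genotypes.

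Penk and Cck did not pass in either genotype. Penk (ENSMUSG00000045573; chr4:4133531-4138819, minus strand), the enkephalin precursor, was at 124.1, 113.7 and 111.1 CPM on Ctrl beads and 116.5, 165.1 and 131.2 CPM in Ctrl supernatant (log2 -0.24, SE 0.141, edgeR adjusted p = 0.202). In Stat3KO it was at 177.7, 68.1 and 59.3 CPM on beads and 179.1, 51.0 and 62.3 CPM in supernatant (log2 0.05, SE 0.512, edgeR adjusted p = 0.951). The 2 fractions overlapped in both genotypes, and Stat3KO pool 1 was far above the other Stat3KO pools in both. With scaling to library totals alone the Ctrl difference passed (log2 -0.39, edgeR adjusted p = 0.0463; 27.2% of all genes lower), and it passed with replicates 2 and 3 only (log2 -0.41, edgeR adjusted p = 0.00726; 26%), within a range of 0.00726 to 0.672 over its alternatives. A830012C17Rik overlaps Penk on the opposite strand and had a mean of at most 0.164 CPM in any group.

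Cck (ENSMUSG00000032532; chr9:121489824-121495694, minus strand) was at 87.9, 54.4 and 54.0 CPM on Ctrl beads and 71.7, 58.5 and 67.3 CPM in Ctrl supernatant. In Stat3KO it was at 74.2, 43.6 and 39.0 CPM on beads and 72.7, 58.1 and 64.5 CPM in supernatant. Pool 1 was highest on beads in both genotypes and the fractions overlapped. The fold was 1.00 in Ctrl (SE of the log2 value 0.202, edgeR adjusted p = 1), and in Stat3KO the log2 difference was -0.33 (SE 0.225, edgeR adjusted p = 0.288). With the pool as a block the Stat3KO difference passed (log2 -0.38, SE 0.123, edgeR adjusted p = 0.0192; 26% of all genes lower), and without Stat3KO bead-bound replicate 1 it was -0.66 (edgeR adjusted p = 0.00267; 18.6%). Over its alternatives the adjusted p ran from 0.000323 to 0.666.

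The second question was whether the transcripts of LepRb cells differ with loss of Stat3. In bead-bound RNA 0 of 8 members passed in either direction by edgeR, against 0.449% of all genes (0.421% higher, 0.0288% lower). At an unadjusted p under 0.05 there were 2 members, Nts and Prlh, against 4.11% of all genes. The median log2 difference of the 8 was -0.25 and that of all genes tested -0.01.

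Nts was 2.504-fold lower in Stat3KO beads than in Ctrl beads (52.1 ± 21.7 against 130.5 ± 41.1 CPM, SD, n = 3). All 3 Stat3KO libraries lay below all 3 Ctrl libraries, as was so for 4.27% of all genes. The log2 difference was -1.32 (SE 0.293, edgeR unadjusted p = 0.00103, adjusted p = 0.169). It passed in DESeq2 (log2 -1.32, adjusted p = 0.000447; 0.0922% of all genes lower) and without Stat3KO replicate 1 (-1.71, edgeR adjusted p = 0.0144; 0.073%). With replicates 2 and 3 only, a fit of 2 libraries per group, it passed as well (-1.93, edgeR adjusted p = 3.86e-11; 5.1%). It also passed with no filter on low counts (edgeR adjusted p = 1.29e-11; 0.165%). These were the only 4 of the 14 alternatives in which it passed. Dropping the filter kept the same libraries and only added genes to the fit (30330 against 17354 tested). The very small p of that setting thus holds no further information on the spread between pools. Across all 14 the log2 difference stayed between -1.93 and -1.06, with adjusted p from 1.29e-11 to 0.654. In supernatant the Nts difference was -0.35 (SE 0.200, edgeR adjusted p = 0.854) and the genotypes overlapped.

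Prlh had the opposite sign on beads. The Stat3KO libraries held 12.97 ± 3.61 CPM against 7.71 ± 2.09 CPM in Ctrl (SD, n = 3), with Stat3KO pool 3 at 9.498 just below Ctrl pool 1 at 9.97 CPM. The log2 difference was 0.75 (SE 0.261, edgeR unadjusted p = 0.0157, adjusted p = 0.940). In supernatant, at 0.378 ± 0.117 against 0.208 ± 0.138 CPM, the log2 difference was 0.92 (SE 0.571, edgeR adjusted p = 0.870).

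The other 6 members did not pass on beads, with edgeR adjusted p = 0.999 for each. The log2 differences were -0.59 for Hcrt (SE 0.477), -0.32 for Cck (SE 0.269), -0.27 for Gal (SE 0.211), -0.22 for Tac1 (SE 0.201), -0.19 for Penk (SE 0.346) and 0.29 for Pmch (SE 0.413). Leaving out Ctrl bead-bound replicate 1 turned Hcrt to 0.12, and leaving out Stat3KO bead-bound replicate 1 turned Pmch to -0.31. In supernatant 0 of 8 members passed by edgeR, against 0.0108% of all genes. At an unadjusted p under 0.05 there were also 0 members, against 6.2% of all genes, and the log2 differences beyond those of Nts and Prlh lay between -0.50 for Penk (SE 0.366) and 0.13 for Pmch (SE 0.183).

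**Figure D3:**
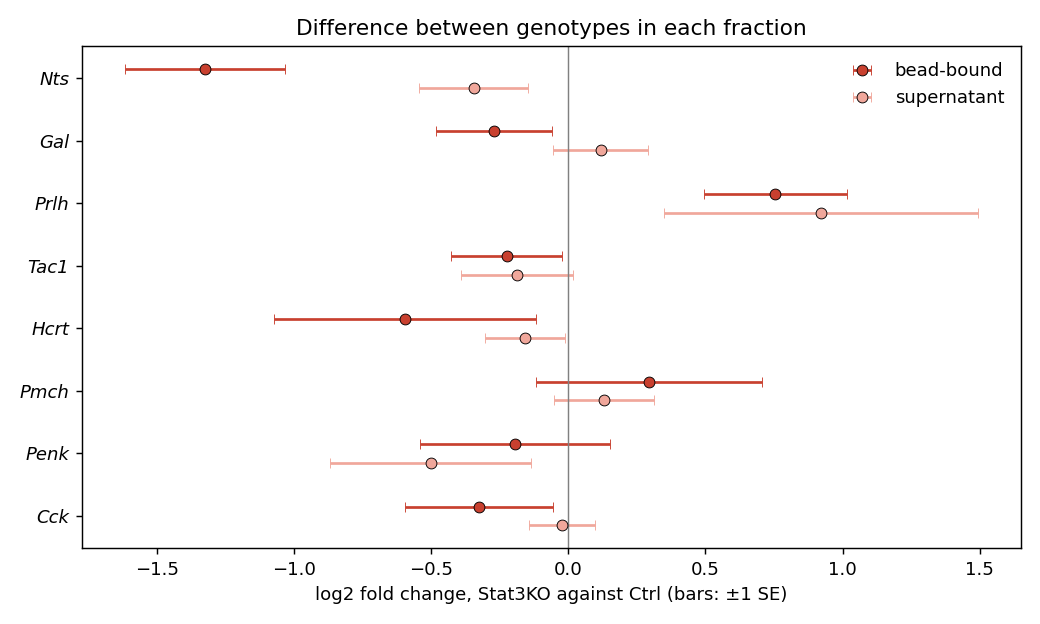
Difference of each peptide transcript between the genotypes, Stat3KO against Ctrl, in each fraction, as log2 fold change (horizontal axis) with bars of 1 SE, from edgeR with n = 3 libraries per group. Nts on beads lies at -1.32 and Prlh at 0.75, and the other bead-bound values lie between -0.59 and 0.29.

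Without replicate 1 of both genotypes the picture on beads was different. With replicates 2 and 3 only, 5 members were lower in Stat3KO by edgeR, against 5.1% of all genes, and 1 was higher, against 1.56%. Beside Nts, the lower ones were Penk (log2 -0.84, SE 0.108, adjusted p = 6.78e-06), Tac1 (-0.59, SE 0.104, adjusted p = 0.00056), Gal (-0.56, SE 0.125, adjusted p = 0.00493) and Cck (-0.42, SE 0.117, adjusted p = 0.0267), and Prlh was higher (0.74, SE 0.200, adjusted p = 0.0218), all by edgeR on 2 libraries per group. In supernatant the same setting called 3 members lower, against 4.22% of all genes: Penk (-1.41, SE 0.115, adjusted p = 0.000226), Nts (-0.75, SE 0.104, adjusted p = 0.00287) and Tac1 (-0.55, SE 0.102, adjusted p = 0.0113), by edgeR. Over all alternatives the highest adjusted p of each of these was 0.654 for Nts on beads and 1 for the rest. With 2 libraries per group, edgeR draws the spread largely from all genes together. The SEs and p-values of this setting therefore say little about each gene's own spread between pools. Of all genes, 894 were called lower on beads here, against 5 in the main fit.

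The levels of Penk went with those of markers of striatum and cortex, tissues that are not part of the hypothalamus. The 11 markers of that list, among them the dopamine receptors Drd1 and Drd2, summed to 418.1, 339.6 and 323.3 CPM on Ctrl beads and 442.5, 191.1 and 220.7 CPM on Stat3KO beads. In supernatant they summed to 586.3, 669.7 and 551.8 CPM in Ctrl and 647.9, 240.7 and 339.1 CPM in Stat3KO. Stat3KO pools 2 and 3 were thus lowest for the markers and for Penk in each fraction, and Stat3KO pool 1 was within or above the Ctrl range for both. None of the 11 markers was at 0 in any library. In supernatant Drd1 differed by -0.78 between genotypes (log2, SE 0.375, edgeR adjusted p = 0.819) and Adora2a, the adenosine receptor of enkephalin neurons, by -1.09 (SE 0.512, edgeR adjusted p = 0.811). Without Stat3KO replicate 1 Penk passed both on beads (log2 -0.86, edgeR adjusted p = 0.0275) and in supernatant (log2 -1.30, edgeR adjusted p = 0.0235; 0.195% of all genes lower there). The part of striatal or cortical tissue in the levels of Penk, Tac1 and Cck was not tested.

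**Figure D4:**
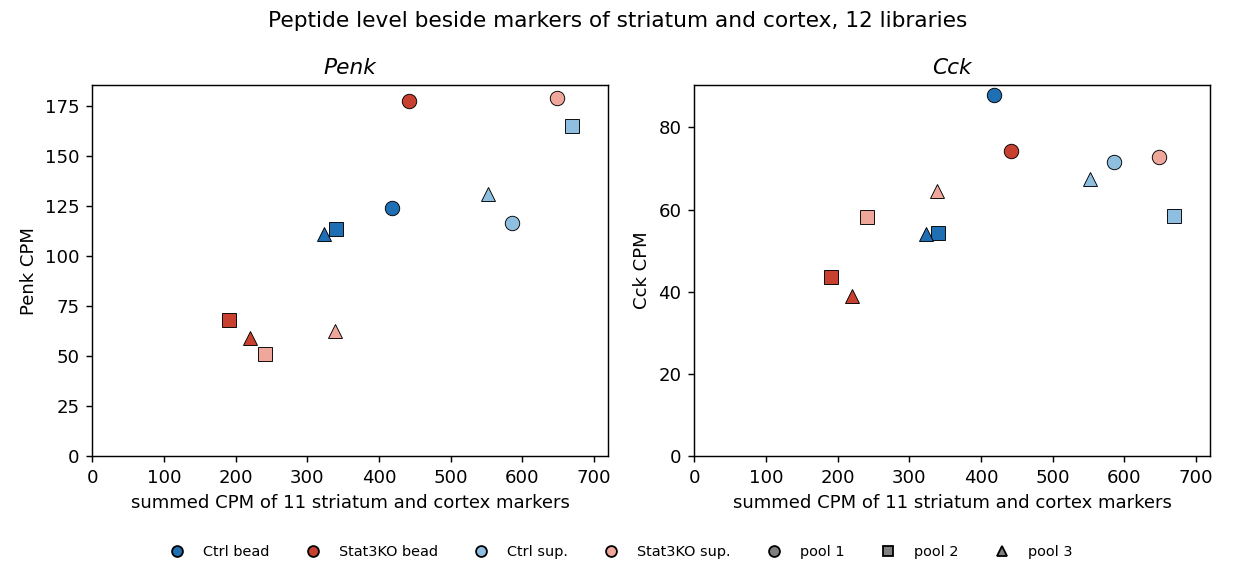
Level of Penk (left) and Cck (right) in CPM against the summed CPM of 11 markers of striatum and cortex, 1 point per library for 12 libraries, with color for group and shape for pool. Stat3KO pools 2 and 3 (red and pink squares and triangles) lie lowest for Penk, at 51.0 to 68.1 CPM.

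The third question was whether the enrichment on beads itself differed between genotypes. By edgeR without a block 0 of 8 members passed, against 0.204% of all genes, and at an unadjusted p under 0.05 there was 1, Nts, against 2.12%. The bead to supernatant ratio of Nts was 4.805, 4.65 and 6.82 in the Ctrl pools and 3.02, 2.24 and 2.95 in the Stat3KO pools. The log2 difference was -0.99 (SE 0.404, edgeR unadjusted p = 0.0282, adjusted p = 1). With the pool as a block, which the division of each pool into 2 fractions allows, it was -0.98 (SE 0.166, edgeR adjusted p = 0.0272), and it was the 1 member called, against 0.0209% of all genes called lower. Over 19 alternatives the difference of Nts lay between -1.38 and -0.70 and the adjusted p between 0.00236 and 1, with 3 alternatives past the threshold.

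For the other 7 members the log2 difference in enrichment lay between -0.44 for Hcrt (SE 0.574) and 0.30 for Penk (SE 0.605), each with edgeR adjusted p = 1. Gal had ratios of 3.44, 4.17 and 3.58 in Ctrl and 2.97, 2.97 and 2.485 in Stat3KO, with a log2 difference of -0.39 (SE 0.290). Tac1 had a log2 difference of -0.04 (SE 0.325), or -0.03 (SE 0.103) with the pool as a block, and its direction turned to 0.30 without Stat3KO supernatant replicate 1.

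Averaged over both genotypes, 4 members were higher on beads, against 26.2% of all genes, and 2 were lower, against 28.7%, by edgeR on all 12 libraries. The folds were 36.3 for Prlh (adjusted p = 1.81e-08), 4.65 for Tac1 (adjusted p = 2.83e-07), 3.88 for Nts (adjusted p = 4.69e-06) and 3.24 for Gal (adjusted p = 8.86e-07), all by edgeR. Pmch was 3.07-fold lower (edgeR adjusted p = 0.000167) and Hcrt 1.81-fold lower (edgeR adjusted p = 0.0215). Hcrt lost its call when replicate 2 or 3 of the beads of either genotype was left out (edgeR adjusted p = 0.0505 to 0.0617).

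Receptors of these peptides were found on both sides. Of 18 receptor genes 16 were tested in the average over genotypes (Npffr2 and Tacr2 were too low), of which 7 were higher on beads and 3 lower, against 26.2% and 28.7% of all genes, with a median log2 difference of 0.315 against -0.03 for all genes. Higher were Prlhr, the receptor of prolactin-releasing peptide (log2 1.54, SE 0.266), the neurotensin receptor Ntsr1 (1.497, SE 0.118) and the galanin receptor Galr3 (1.26, SE 0.437). The orexin receptors Hcrtr1 (0.91, SE 0.126) and Hcrtr2 (0.78, SE 0.181), and the cholecystokinin receptors Cckar (0.68, SE 0.133) and Cckbr (0.36, SE 0.123), were also higher. Galr3 had group means of only 0.169 to 0.528 CPM, did not pass in Ctrl alone and overlaps Gcat on the same strand. Lower were Ntsr2, a neurotensin receptor known from astrocytes (-1.31, SE 0.221), the opioid receptor Oprm1 (-0.89, SE 0.321) and the sorting receptor Sort1, which also binds neurotensin (-0.36, SE 0.0961). Tested within each genotype, Hcrtr2 and Cckbr passed in Ctrl only, Sort1 passed in Stat3KO only, and Oprm1 passed in neither. Ntsr1 and Ntsr2 thus took opposite directions: Ntsr1 was at 29.9 ± 6.04 CPM on Ctrl beads and 10.3 ± 1.24 CPM in Ctrl supernatant, and Ntsr2 at 29.1 ± 15.6 and 77.1 ± 17.7 CPM (SD, n = 3). The 7 astrocyte markers were all lower on beads, with a median log2 difference of -1.07, and their part in the Ntsr2 value was not tested. Between genotypes 0 of 16 receptors passed on beads and 0 of 15 in supernatant by edgeR, with 3 and 1 at an unadjusted p under 0.05, against 4.11% and 6.2% of all genes.

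Other neuropeptide genes of these regions were described in the same way. Of 16, 15 were tested over both genotypes (Galp was too low), and 9 were higher on beads and 3 lower, against 26.2% and 28.7% of all genes, with a median log2 difference of 0.89. Cartpt, of the cocaine and amphetamine regulated transcript, led with 2.86 (SE 0.167), followed by Adcyap1 of the pituitary adenylate cyclase-activating peptide (2.05, SE 0.145), Crh of corticotropin-releasing hormone (1.82, SE 0.183), Pdyn, the dynorphin precursor (1.37, SE 0.166), Grp of gastrin-releasing peptide (1.31, SE 0.162) and Nms of neuromedin S (1.15, SE 0.350). Vip (0.93, SE 0.210), Nucb2 (0.89, SE 0.146) and Pnoc (0.45, SE 0.151) were also higher. The 3 lower ones were Qrfp (-1.18, SE 0.279), Ucn3 (-0.88, SE 0.282) and Npvf (-0.71, SE 0.279). Their group means were low, at 0.502 to 1.15 CPM for Qrfp, 0.858 to 1.76 for Ucn3 and 0.892 to 2.03 for Npvf. Tested within each genotype, Nms, Vip, Pnoc and Ucn3 passed in Ctrl only, and Npvf passed in neither. Sst passed as higher in Ctrl only (192.6 ± 53.3 CPM on beads against 111.3 ± 7.18 CPM, SD, n = 3) and not in the average. Pdyn is made by orexin neurons among others, and at 96.8 ± 20.3 CPM on Ctrl beads against 31.3 ± 4.57 CPM in supernatant it did not share the direction of Hcrt. Between genotypes 1 of 15 passed on beads by edgeR: Cartpt fell, at 174.8 ± 45.9 CPM with Stat3KO and 517.4 ± 76.7 CPM without (SD, n = 3; log2 -1.56, SE 0.206, adjusted p = 0.0056), while in supernatant 0 of 15 passed. At an unadjusted p under 0.05 there were 3 on beads, Cartpt, Pdyn (log2 -0.60, edgeR adjusted p = 0.999) and Vip (log2 -0.66, edgeR adjusted p = 0.999), and 0 in supernatant, against 4.11% and 6.2% of all genes.

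Regional genes of the lateral and dorsomedial hypothalamus were tested for all 8 of the list. Over both genotypes 6 were higher on beads and 2 lower by edgeR, against 26.2% and 28.7% of all genes, with a median log2 difference of 1.05. The homeobox genes Hmx2 (2.29, SE 0.174) and Hmx3 (2.12, SE 0.177), Ppp1r17 (1.54, SE 0.110), a gene known from dorsomedial LepRb neurons, Nptx2 (1.15, SE 0.132), Cbln1 (0.95, SE 0.125) and Gpr50 (0.62, SE 0.235) were higher. The LIM homeobox genes Lhx9 (-0.71, SE 0.102) and Lhx6 (-1.02, SE 0.207) were lower, a share near that of all genes. Tested within each genotype, Lhx6 passed in Ctrl only and Gpr50 passed in neither. Between genotypes 0 of 8 passed on beads and 0 of 8 in supernatant by edgeR, with 0 and 1 at an unadjusted p under 0.05, against 4.11% and 6.2% of all genes, and Ppp1r17 was at 32.9 ± 5.74 CPM on Stat3KO beads against 28.2 ± 3.38 CPM on Ctrl beads (SD, n = 3).

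**Figure D5:**
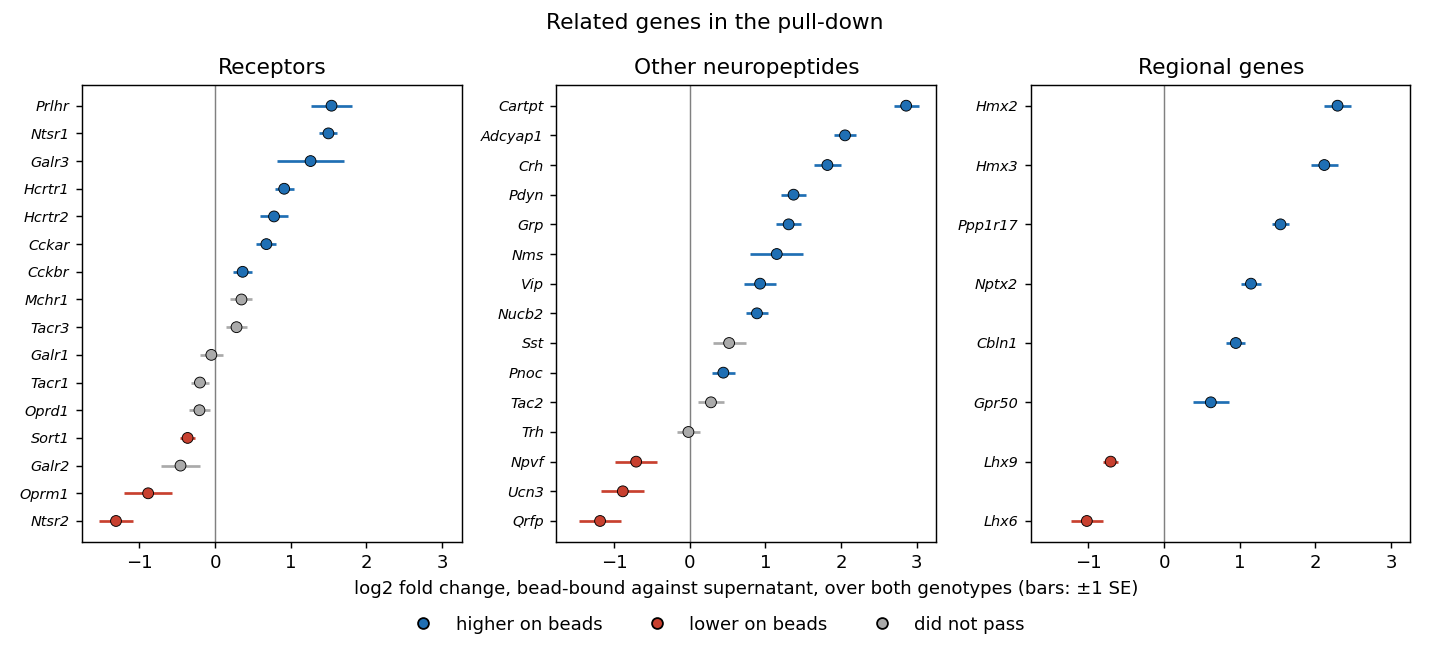
Bead to supernatant difference over both genotypes for the receptors of the peptides, other neuropeptide genes and regional genes, as log2 fold change (horizontal axis) with bars of 1 SE, from edgeR on 12 libraries; blue is higher on beads, red lower and grey did not pass. Cartpt stands highest at 2.86, and Ntsr2 lowest at -1.31.

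Markers of other cell types were also counted in the bead-bound RNA. Whether their transcripts came from LepRb cells or from other cells was not tested. The 5 markers of midbrain dopamine neurons, of which Th is also made in hypothalamic neurons, were all higher on beads over both genotypes, with a median log2 difference of 2.715 and sums of 760.4 to 1221 CPM on beads and 159.6 to 267.9 CPM in supernatant. The 7 endothelial markers were all higher as well (median 1.86), with sums of 27.05 to 164.7 CPM on beads and 26.25 to 33.45 CPM in supernatant. In Stat3KO pool 1 the endothelial sum on beads, 27.05 CPM, was not above that in its supernatant, 27.79 CPM, while in the other 5 pools the beads were higher. Thalamic, astrocytic, oligodendrocytic and microglial markers were lower on beads for every gene of their lists. Neuronal markers, 3 of 8 higher and 1 lower, had a median of 0.13. Of the markers of striatum and cortex 1 of 11 was higher and 3 lower, of ependyma and tanycytes 2 of 5 were lower, and of pituitary 1 of 4 was lower. Of all genes 26.2% were called higher and 28.7% lower in this comparison. The lower counts for striatum and cortex and for pituitary were near that share. Midbrain dopamine neurons are known to use neurotensin and cholecystokinin as well, and the part of these cells in the levels of Nts and Cck was not tested.

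The genes most like each peptide gene were read from Pearson's r of log2 CPM over the 12 libraries, among 10206 genes (10207 for Prlh) with a mean of at least 10 CPM. The libraries share fraction and pool, so these values describe the profile across fractions and pools. Nts was most like Gfra2 (r = 0.979), Gal like Fxyd6 (r = 0.997), Tac1 like Syt5 (r = 0.996) and Prlh like Cited1 (r = 0.987). Pmch was most like Sparc (r = 0.988) and Hcrt like Paqr4 and Apoe (r = 0.976 and 0.970), the last a gene known from astrocytes. Penk was most like Kcnj4 (r = 0.952) and Cck like Cntfr (r = 0.930), the lowest values of the 8.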

How the data were processed

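RNA was sequenced from 12 libraries, 3 in each of 4 groups, on pools of 5 to 8 mice; per the labels' protocols, polyA RNA of an integrity number not under 8 went into a kit that does not mark strand and was read in 50 cycles from 1 end. The deposited table holds whole-number counts per gene, with totals that differ between libraries. The aligner was STAR 2.5.3a and the build mm10, per the submitters' processing notes; counter and annotation: not given in the sources used here. GENCODE M21 on GRCm38 gave names and lengths for 52403 of 52638 entries, 233 were unmatched and 2 are transgenes.

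All genes passing filterByExpr (minimum count 10, minimum total 15) were fitted with edgeR 4.0.16 in R 4.3.3, with TMM scaling, the quasi-likelihood test, 2-sided p and Benjamini-Hochberg adjustment over all genes tested; called means adjusted p under 0.05. The SE is the log2 fold change divided by the square root of F. The 6 comparisons were the genotypes in each fraction, the fractions in each genotype, the difference of the fractions between genotypes, and the fractions averaged over genotypes; the last 2 used all 12 libraries. Log2 CPM values had a prior count of 2. Replicates are separate pools of mice, and intervals and counts speak to counting error only, since reads carry no molecular identifiers.

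Libraries of 1 genotype with the same number are fractions of the same pool, per the series' design text, and the deviations of such pairs from their group means correlated in all 6 pools (r = 0.196 to 0.367). The pool is therefore given as a block where it changes a call. All other values come from fits without a block, so their SEs and p-values do not use the pairing. With the block, edgeR called 58.5% of all genes between fractions in Ctrl, against 41.9% without it. In Stat3KO it called 49.7% against 32.1%. Alternatives were RLE factors, library totals, no filter, DESeq2 1.42.0, voom in limma 3.58.1, a replicate block, a fit of all 12 libraries, each library left out in turn, and replicates 2 and 3 only. All 8 members were described in every comparison; from the lists of 18 receptors, 16 other neuropeptides, 8 regional genes and 10 sets of cell type markers, counts were given and genes past the threshold named; for each member the genes with the highest r are given. Members and lists were chosen with earlier results of these data known, so counts set beside the shares of all genes are descriptions. The fits were tested on simulated data. Simulated libraries were independent and all genes had the same dispersion, so shared pools and the deviation of replicate 1 were not covered.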

Additional observations from a re-analysis of the deposited data

How the results depend on the processing

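Across alternatives, 162 counts of called members stayed within 1.5 times the main count and 26 moved; of the fold changes of single members, 676 kept their direction and side of the threshold, 29 newly passed it, 12 lost it and 35 changed sign. The 4 members higher on the beads (Nts, Gal, Prlh and Tac1) were called in each genotype in every alternative run. The counts that moved were as follows, and the cause was not tested. In Stat3KO against Ctrl on the beads, where edgeR called 0 members lower, the count was 1 without the filter on low counts, 1 with DESeq2 and 5 with replicates 2 and 3 only, a fit of 2 libraries a group that also called 1 member higher. In supernatant 0 became 1 without the filter and 3 with replicates 2 and 3 only. For beads below supernatant in Ctrl, 1 became 2 with library totals, 2 without the filter, 2 with the pool as a replicate block and 3 with replicates 2 and 3 only; in Stat3KO, 2 became 1 in the fit of all 12 libraries. For the difference between genotypes in the bead to supernatant ratio, 0 lower became 1 without the filter, 1 with replicates 2 and 3 only and 1 with the replicate block.

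With each library left out in turn, the count of members lower ran from 0 to 2 for genotype on the beads, 0 to 1 for genotype in supernatant, 1 to 2 for beads against supernatant in Ctrl, 0 to 3 in Stat3KO and 1 to 3 averaged over genotypes. The log2 values that changed sign under such omissions ran, for genotype on the beads, from -1.174 to 0.119 for Hcrt, -0.3141 to 0.7104 for Pmch and -0.8649 to 0.08342 for Penk. In supernatant they ran from -0.1156 to 0.2323 for Gal, -0.01173 to 0.3477 for Pmch, -0.5352 to 0.007512 for Tac1 and -0.1148 to 0.05893 for Cck. For beads against supernatant they ran from -0.2827 to 0.1363 for Cck in Ctrl, -0.6173 to 0.8373 for Penk in Stat3KO and -0.4262 to 0.3005 for Penk averaged over genotypes. For the difference between genotypes in that ratio they ran from -1.024 to 0.2688 for Hcrt, -0.4564 to 0.5671 for Pmch, -0.5579 to 0.3309 for Prlh, -0.3322 to 0.2971 for Tac1 and -0.3731 to 1.086 for Penk. With replicates 2 and 3 only, the supernatant genotype value turned to -0.05056 for Gal and -0.02807 for Pmch; without the filter, the bead to supernatant value of Cck in Ctrl turned to 0.02227, and with library totals that of Penk in Stat3KO turned to -0.07522. No value that changed sign had passed the threshold before or after.

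Ctrl and Stat3KO pools share replicate numbers but not animals, and same-numbered bead-bound libraries correlated at r = 0.115, -0.085 and 0.136, supernatant ones at 0.141, 0.037 and 0.024; the replicate block between genotypes called 0 members in either fraction (Nts on the beads -1.36, edgeR adjusted p = 0.266). The pool block within genotypes changed no member's call beyond Hcrt in Ctrl (log2 -0.81, adjusted p = 0.0114), Cck in Stat3KO (log2 -0.38, adjusted p = 0.0192) and Nts in the ratio difference (log2 -0.98, adjusted p = 0.0272). Depth limits Prlh most, with 2 to 21 counts in a supernatant library.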
